A study of Mus musculus with 8 samples.

Results

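The outer segment of the photoreceptor is the stack of membrane discs that captures light. The genes described here were grouped as those of its discs and structure, though not all of them build the discs. They are *Prph2*, *Rom1*, *Prom1*, *Cdhr1*, *Rp1*, *Crb1*, *Fscn2*, *Abca4*, *Tulp1* and *Impg1*, and they were taken as every probe set of the deposited table whose annotated symbol is one of these 10 names. A probe set is a group of short probes that reads a transcript mostly near its 3' end. This gave 13 of the 45037 probe sets tested, or 10 of the 18193 genes that have a probe set of their own: *Rp1*, *Crb1* and *Impg1* have 2 probe sets each and the other 7 genes have 1.

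The study asked how excess oxygen changes gene expression in a retina with no inherited degeneration. Total RNA of the retina of adult C57BL/6J mice was measured on 8 Affymetrix mouse arrays. Controls were kept at normal oxygen (0 days, 2 arrays), and the other mice spent 3, 7 or 14 days in 75% oxygen (2 arrays per time). All groups were kept in cyclic dim light (5 lux), and the labels give the age as postnatal day 80 to 120 for all arrays. The methods describe retinas of both sexes pooled for each time, without stating if the 2 arrays at a given time are separate pools. The p-values therefore measure the spread between arrays, which may be technical. A retina holds many cell types, and in its total RNA fewer photoreceptors cannot be told apart from less RNA per photoreceptor.

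The discs are renewed throughout life. New membrane evaginates at the base of the outer segment, where it leaves the connecting cilium, and is closed off into a disc whose rim is held in a hairpin curve by tetraspanin proteins. A microtubule axoneme runs along the stack, a matrix fills the space around it, and proteins and membrane reach it from the inner segment through the cilium. Mutations in many of these genes cause inherited retinal degeneration in people.

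The deposited values are log2 values centred on the median of each probe set over the 8 arrays. A value of 0 is therefore that probe set's own median, which need not lie midway in its range. They give differences between arrays and no level. The levels of different genes could not be compared, and the labelled tissue could not be checked by the level of its markers. Times were compared by subtracting one mean of 2 arrays from the other on the log2 scale, with the standard error (SE) from limma. The Benjamini-Hochberg adjustment ran over all 45037 probe sets.

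A pair of arrays stood apart, those labelled day 3 replicate 2 and day 14 replicate 2. The difference between the 3' and the 5' probe sets of *Gapdh*, a glycolytic enzyme, was 1.19 and 1.43 on them against -0.32 to 0.12 on the other 6. The median of 25 probe sets of microglia and macrophages was 1.26 and 1.13 on them against -0.24 to 0.05 elsewhere, and that of 27 probe sets of reactive glia was 1.17 and 0.99 against -0.33 to 0.13. The quality measures in the study's paper place the high *Gapdh* ratios on both arrays of the last time and on neither of the first exposure time. That paper labels them as ratios of 5' to 3', the reverse of the difference taken here, so the measures may not match. Here the high 3' minus 5' differences lie on 1 array labelled day 3 and 1 labelled day 14. Whether an array carries the wrong day could not be settled from the files, so every day 3 and day 14 value below is by the label and is open to that doubt. The part of these signals in the results on the outer segment genes was not tested. Differences of the 10 genes that rest on either array are given with and without it where leaving it out changed their direction or their size by over 1.5 times.

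None of the 13 probe sets passed an adjusted p of 0.05 at any time by limma. Before adjustment, 6 of 13 had a p under 0.05 at day 3, 0 at day 7 and 1 at day 14. Over all probe sets these shares were 10.3%, 0.864% and 8.27%. Of all probe sets 0.0% passed at any of these times, and the lowest adjusted p over all of them was 0.471 at day 3, 1 at day 7 and 0.386 at day 14. Leaving out day 0 replicate 1 took the 6 at day 3 to 1, and leaving out day 0 replicate 2 took them to 0. At day 3, 12 of 13 probe sets had a lower mean than control (44.6% of all), as did 12 of 13 at day 14 (42.0% of all), and *Prph2* was the one higher at both.

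**Figure D1:**
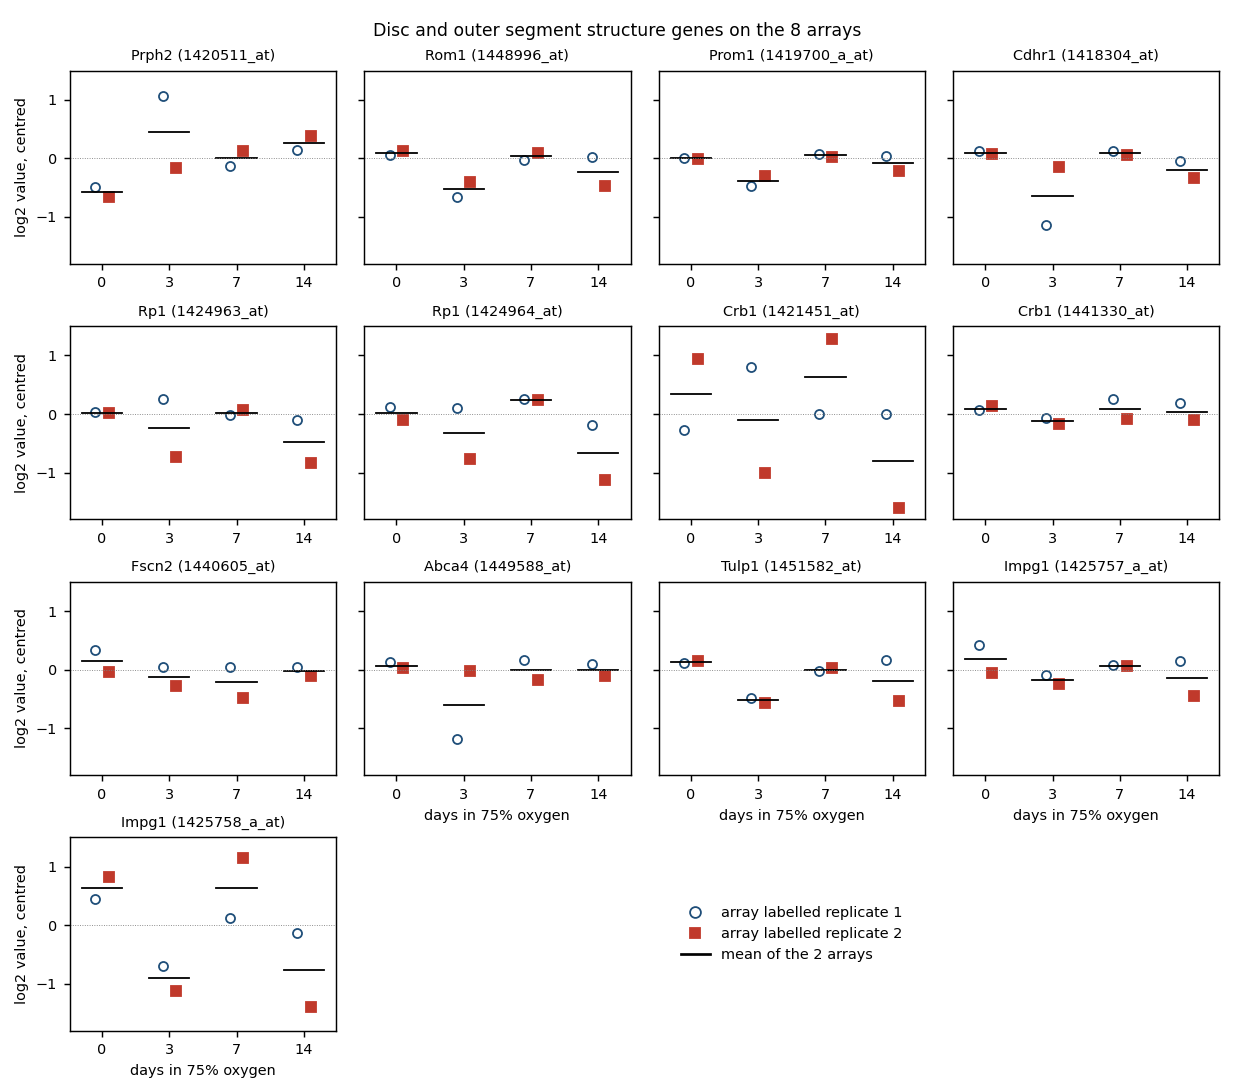
Centred log2 value of the 13 probe sets on the 8 arrays (vertical axis, the same range in all panels) against days in 75% oxygen (horizontal axis); open circles are arrays labelled replicate 1, filled squares replicate 2, and bars the mean of the 2 arrays. *Prph2* is lowest on both controls (-0.49 and -0.66), while *Rom1*, *Prom1* and *Tulp1* are lower on both day 3 arrays than on both controls.

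The disc rim is held by peripherin-2 and ROM1, a pair of related tetraspanins that assemble with each other. *Prph2*, on chromosome 17 (GRCm38.p6, 46910478 to 46924933), encodes peripherin-2, without which outer segments do not form. *Rom1*, on chromosome 19 (8927382 to 8929356), encodes its partner. Because these partners lay on opposite sides of control, the 250 bases before the annotated start of each are shown, from RefSeq on the GRCm38.p6 build and in the 5′ to 3′ direction of the gene. The first is chr17:46910228-46910477 on the plus strand and the second chr19:8929357-8929606 on the minus strand.
Prph2: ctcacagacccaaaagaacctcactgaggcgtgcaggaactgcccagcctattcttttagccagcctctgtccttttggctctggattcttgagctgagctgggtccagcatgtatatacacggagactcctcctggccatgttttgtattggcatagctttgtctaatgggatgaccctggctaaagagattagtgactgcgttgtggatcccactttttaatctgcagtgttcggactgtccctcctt
Rom1: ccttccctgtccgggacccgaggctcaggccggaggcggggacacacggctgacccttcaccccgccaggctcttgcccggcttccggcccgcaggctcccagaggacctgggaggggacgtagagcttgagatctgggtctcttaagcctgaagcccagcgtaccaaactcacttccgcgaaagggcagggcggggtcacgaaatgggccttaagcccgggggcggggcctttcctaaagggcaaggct
The *Rom1* stretch is richer in G and C, at 66.8% against 49.6% for *Prph2*. All 10 RefSeq windows that 9 of the genes have (*Prom1* has 2) were searched from 250 bases before to 50 bases after the start, on both strands, for TAATCC, the core letters bound by the photoreceptor factor CRX, and TGCTGA, core letters of sites of the rod factor NRL. Neither window shown here held either. Over all 32851 windows of the table, 7.06% held TAATCC and 19.5% held TGCTGA. Among the outer segment genes 1 of 10 windows held the first and 0 of 10 the second.

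*Prph2* had -0.49 and -0.66 on the control arrays, 1.07 and -0.16 at day 3, -0.13 and 0.13 at day 7, then 0.15 and 0.39 at day 14. All 6 arrays of exposed retinas lay above both controls, and the array labelled day 3 replicate 1 was the highest by far. The difference from control was 1.03 ± 0.37 at day 3 (SE, limma adjusted p = 0.471), 0.58 ± 0.37 at day 7 (adjusted p = 1) and 0.84 ± 0.37 at day 14 (adjusted p = 0.617). Without day 3 replicate 1 the day 3 difference was 0.42, and without day 3 replicate 2 it was 1.64. The mean of the 3 exposure times, a comparison added after the values were seen, was 0.82 ± 0.30 above control (limma adjusted p = 0.906), and stayed between 0.61 and 1.02 when any 1 array was left out. *Prph2* was the single probe set of the 13 whose exposed arrays did not overlap control, where 6.49% of all probe sets did so in either direction and 4.73% upwards.

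*Rom1* had 0.06 and 0.12 on the controls, -0.66 and -0.41 at day 3, -0.02 and 0.09 at day 7, then 0.02 and -0.47 at day 14. Both day 3 arrays and both day 14 arrays lay below both controls, and those of day 7 overlapped them. The difference from control was -0.62 ± 0.19 at day 3 (unadjusted p = 0.0158, limma adjusted p = 0.471), -0.06 ± 0.19 at day 7 and -0.32 ± 0.19 at day 14 (adjusted p = 0.691), or -0.07 without day 14 replicate 2. From day 3 to day 7 it was higher by 0.57 ± 0.19 (unadjusted p = 0.0236, adjusted p = 0.362). Leaving out either day 3 array left *Rom1* lower at day 3, at -0.50 without replicate 1 and -0.75 without replicate 2.

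Set side by side on the same arrays, *Prph2* minus *Rom1* was -0.56 and -0.78 in control retinas. It was 1.72 and 0.25 at day 3, -0.11 and 0.04 at day 7, then 0.12 and 0.86 at day 14. The controls were the lowest of the 8 arrays in this difference, which compares each gene with its own middle value and not the levels of the genes. It was noticed in the values and has no test.

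**Figure D2:**
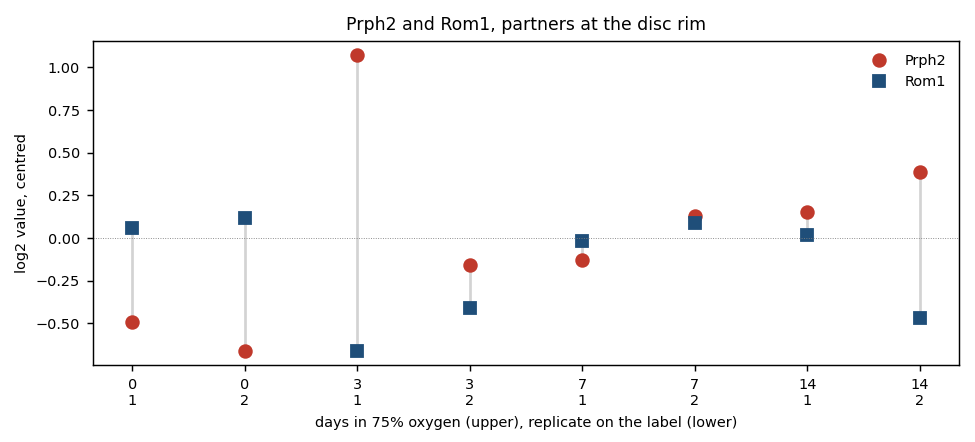
Centred log2 values (vertical axis) of *Prph2* (circles) and *Rom1* (squares) on each of the 8 arrays, in order of days in 75% oxygen and replicate number (horizontal axis), with a grey line joining the genes on an array. *Prph2* lies below *Rom1* on both controls and on day 7 replicate 1, and above it on the other 5 arrays, by most (1.72) on day 3 replicate 1.

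Prominin-1 and the photoreceptor cadherin CDHR1 sit where new disc membrane evaginates. *Prom1*, on chromosome 5 (43993621 to 44102047), had 0.01 and -0.01 on the controls, -0.47 and -0.30 at day 3, 0.07 and 0.02 at day 7, then 0.04 and -0.21 at day 14. Both day 3 arrays were below both controls and both day 7 arrays above them, and the day 14 arrays lay on either side. The day 3 difference was -0.39 ± 0.14 (unadjusted p = 0.0329, limma adjusted p = 0.472), while that of day 7 was 0.05 ± 0.14 (adjusted p = 1) and that of day 14 was -0.08 ± 0.14, or 0.04 without day 14 replicate 2. Between day 3 and day 7 *Prom1* differed by 0.43 ± 0.14 (unadjusted p = 0.0212, adjusted p = 0.358).

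*Cdhr1*, on chromosome 14 (37077849 to 37098347), had 0.12 and 0.07 on the controls, -1.14 and -0.15 at day 3, 0.12 and 0.05 at day 7, then -0.05 and -0.33 at day 14. The arrays of days 3 and 14 were all below both controls, and day 3 replicate 1 was far below every other array. The day 3 difference was -0.74 ± 0.30 (unadjusted p = 0.0462, limma adjusted p = 0.479). Dropping day 3 replicate 1 left -0.25, and dropping day 3 replicate 2 left -1.23, so its size was set by which of these arrays was used. At day 14 it was -0.29 ± 0.30, or -0.15 without day 14 replicate 2. Day 7 differed from day 3 by 0.73 ± 0.30 (unadjusted p = 0.0485, adjusted p = 0.41), or 0.24 without day 3 replicate 1 and 1.22 without day 3 replicate 2.

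ABCA4 is a flippase of the disc rim that clears retinaldehyde from the disc membrane. *Abca4* lies on chromosome 3 (122043891 to 122180070). Its window was the one that held the CRX core letters, 58 bases before the start, so the 250 bases before the start are shown with these letters in capitals (chr3:122044210-122044459, plus strand, GRCm38.p6, RefSeq), where TAATCC reads as GGATTA on the opposite strand.
Abca4: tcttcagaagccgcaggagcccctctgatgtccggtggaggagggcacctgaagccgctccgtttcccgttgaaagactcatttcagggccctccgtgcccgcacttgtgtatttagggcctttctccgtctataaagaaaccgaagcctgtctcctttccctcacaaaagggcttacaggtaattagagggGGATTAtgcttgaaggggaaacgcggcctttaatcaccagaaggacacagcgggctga
Such a match is a description of the letters, and no binding was measured. *Abca4* had 0.13 and 0.02 on the controls, -1.18 and -0.02 at day 3, 0.16 and -0.17 at day 7, then 0.09 and -0.11 at day 14. A single array, day 3 replicate 1, stood more than 1 log2 unit below all the others, and day 3 replicate 2 was just under the controls. The day 3 difference was -0.67 ± 0.36 (limma adjusted p = 0.546). Dropping day 3 replicate 1 left -0.09, and dropping day 3 replicate 2 left -1.26. At days 7 and 14 *Abca4* differed from control by -0.08 ± 0.36 and -0.09 ± 0.36, and the arrays overlapped. Without day 14 replicate 2 the latter was 0.01.

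RP1 is a microtubule-associated protein of the axoneme, needed for discs to stack in order. *Rp1* lies on chromosome 1 (4115673 to 4409266), and its 2 probe sets differed from each other by 0.147 on average over the arrays. The first (1424963_at) had 0.04 and 0.01 on the controls, 0.25 and -0.73 at day 3, -0.01 and 0.06 at day 7, then -0.11 and -0.84 at day 14. The second (1424964_at) had 0.12 and -0.10, then 0.10 and -0.77, 0.25 and 0.24, and -0.18 and -1.13. In both probe sets the low values of days 3 and 14 were on the arrays labelled replicate 2, the ones that stood apart, and the day 3 arrays overlapped control. The day 3 differences were -0.27 ± 0.36 and -0.35 ± 0.37, and 0.22 and 0.08 without day 3 replicate 2. At day 14 both arrays lay below both controls, with differences of -0.50 ± 0.36 (limma adjusted p = 0.717) and -0.67 ± 0.37 (adjusted p = 0.667). Without day 14 replicate 2 these were -0.13 and -0.20. The second probe set was lower at day 14 than at day 7 by -0.90 ± 0.37 (unadjusted p = 0.0484, adjusted p = 0.482), or -0.43 without day 14 replicate 2.

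TULP1 takes part in the transport of proteins to the outer segment. *Tulp1*, on chromosome 17 (28351515 to 28365216), had 0.12 and 0.14 on the controls, -0.48 and -0.57 at day 3, -0.03 and 0.03 at day 7, then 0.16 and -0.54 at day 14. Its day 3 arrays lay closer to each other than those of any other gene that was lower by more than 0.5 there, the day 7 arrays were just under control and those of day 14 were split around it. The day 3 difference was -0.66 ± 0.23 (unadjusted p = 0.0237, limma adjusted p = 0.471), and it was -0.70 and -0.61 without replicate 1 and replicate 2 of day 3. At day 14 it was -0.32 ± 0.23 (adjusted p = 0.712), and it turned to 0.02 without day 14 replicate 2.

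*Fscn2*, on chromosome 11 (120360165 to 120368173), encodes retinal fascin, which bundles actin. It had 0.34 and -0.04 on the controls, 0.04 and -0.28 at day 3, 0.05 and -0.49 at day 7, then 0.04 and -0.11 at day 14. At every time its arrays overlapped control, and at every time replicate 2 was the lower. Its difference from control was -0.27 ± 0.23 at day 3, -0.37 ± 0.23 at day 7 (unadjusted p = 0.16, limma adjusted p = 1) and -0.18 ± 0.23 at day 14. Without the arrays that stood apart the values of days 3 and 14 were -0.12 and -0.11.

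IMPG1 is a proteoglycan of the matrix between the photoreceptors. *Impg1* lies on chromosome 9 (80312773 to 80465654). Its probe set 1425758_a_at had 0.45 and 0.83 on the controls, -0.69 and -1.13 at day 3, 0.13 and 1.14 at day 7, then -0.13 and -1.40 at day 14. Days 3 and 14 lay wholly below control, with day 14 replicate 2 lowest, and day 7 spanned control. This was the largest difference from control of the 13 at day 3 (-1.55 ± 0.49, unadjusted p = 0.0161, limma adjusted p = 0.471) and at day 14 (-1.41 ± 0.49, unadjusted p = 0.024, adjusted p = 0.535). Without day 14 replicate 2 the day 14 value was -0.77, and without day 14 replicate 1 it was -2.04. From day 3 to day 7 the probe set was higher by 1.55 ± 0.49 (adjusted p = 0.352), and day 14 differed from day 7 by -1.41 ± 0.49 (adjusted p = 0.444), or -0.77 without day 14 replicate 2. It also had the one unadjusted p under 0.05 among the 13 in limma's F test over the 4 times (0.0236, adjusted p = 0.581), where 8.09% of all probe sets had one.

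The other *Impg1* probe set (1425757_a_at) varied less, over a range of 0.87 against 2.55. It had 0.42 and -0.06 on the controls, -0.10 and -0.25 at day 3, 0.08 and 0.06 at day 7, then 0.14 and -0.45 at day 14. Both day 3 arrays were below both controls, and the other times overlapped them. It differed from control by -0.35 ± 0.24 at day 3 (limma adjusted p = 0.623) and -0.33 ± 0.24 at day 14, the latter -0.04 without day 14 replicate 2. The probe sets differed from each other by 0.594 on average, with the same sign on 6 of 8 arrays, so the size of change of *Impg1* depends on the probe set.

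CRB1 is a protein of cell polarity at the outer limiting membrane, where photoreceptors and Müller cells adhere. *Crb1* lies on chromosome 1 (139176649 to 139379316), and its probe sets gave different accounts. The first (1421451_at) had -0.27 and 0.94 on the controls, 0.80 and -1.01 at day 3, 0.00 and 1.28 at day 7, then 0.00 and -1.60 at day 14. Arrays of one time lay more than 1 log2 unit apart in every group, and no time separated from control. Its SE was 0.83 at each comparison, and its day 14 difference was -1.13 (limma adjusted p = 0.723), or -0.33 without day 14 replicate 2. The day 3 difference was -0.44, or 0.46 without day 3 replicate 2. The second probe set (1441330_at) had a range of 0.43 over all 8 arrays against 2.87 for the first. It had 0.06 and 0.13 on the controls, -0.06 and -0.17 at day 3, 0.26 and -0.08 at day 7, then 0.18 and -0.10 at day 14. Its day 3 arrays were below both controls, by -0.21 ± 0.17 (adjusted p = 0.684), and the others overlapped. At day 14 it had -0.05 ± 0.17, or 0.09 without day 14 replicate 2.

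Over the 13 probe sets, the median difference from control was -0.39, 0.00 and -0.32 at days 3, 7 and 14, beside 0.04, 0.00 and 0.05 over all probe sets. These comparisons share the control arrays. At day 3 the arrays of 9 probe sets did not overlap control (8 lower and 1 higher), where 42.5% of all probe sets did not (17.8% lower and 24.7% higher). At day 7 there were 4 such probe sets (1 lower and 3 higher), beside 24.7% of all (12.3% lower and 12.3% higher), and at day 14 there were 6 (5 lower and 1 higher), beside 46.0% of all (18.3% lower and 27.7% higher). At day 7, 9 of 13 had a lower mean than control, beside 50.7% of all. With a difference of 1 or more as well, *Prph2* and *Impg1* (1425758_a_at) met both at day 3, none at day 7, and *Impg1* at day 14, where 1.29%, 0.155% and 1.7% of all probe sets did. Leaving out day 3 replicate 1 changed the count of unadjusted p under 0.05 at day 3 from 6 to 2.

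**Figure D3:**
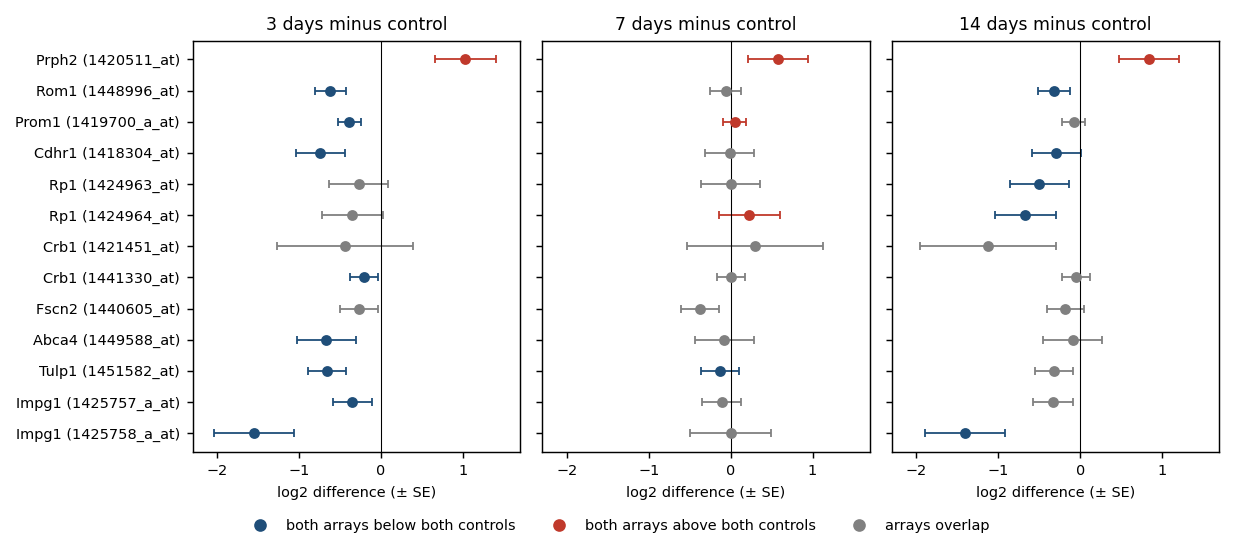
Difference from control on the log2 scale (horizontal axis, points, with bars of 1 SE from limma) for the 13 probe sets at 3, 7 and 14 days in 75% oxygen; blue marks probe sets with both arrays below both controls, red those with both above, grey those that overlap. Most points lie left of 0 at days 3 and 14 and near 0 at day 7, and *Prph2* lies right of 0 at all 3 times; no difference passed an adjusted p of 0.05.

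The comparisons between exposure times share no control array. Those of day 7 with day 3 and with day 14 use the same 2 day 7 arrays, so their results are not independent. Between day 3 and day 7, 11 of 13 probe sets were higher at day 7 (45.3% of all), the median difference was 0.52 beside -0.03 over all probe sets, and the arrays of 7 did not overlap, all 7 higher at day 7, where 16.5% of all were. In that comparison 4 had an unadjusted p under 0.05 (12.1% of all) and 0 an adjusted one. Without day 3 replicate 2 the median difference was 0.17. Between day 7 and day 14, 11 of 13 were lower at day 14 (42.4% of all), with a median of -0.22 beside 0.05 over all probe sets. The arrays of 5 did not overlap (44.7% of all), 2 had an unadjusted p under 0.05 (10.3% of all) and 0 an adjusted one. Without day 14 replicate 2 this median was 0.00. Between days 3 and 14 the median was 0.14, and 0 probe sets had an unadjusted p under 0.05 (2.67% of all).

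Array by array, the median of the 13 probe sets was 0.12 and 0.02 on the controls, -0.10 and -0.30 at day 3, 0.07 and 0.06 at day 7, then 0.04 and -0.45 at day 14. All 13 were below 0 on day 3 replicate 2 and 12 of 13 on day 14 replicate 2, the arrays that stood apart, while *Prph2* was above 0 on the latter. Over all 45037 probe sets the medians on these arrays were 0.02 and 0.03. Day 3 replicate 1 had glial and immune medians of -0.13 and 0.04. It was also, with day 7 replicate 2, the array with the widest spread over all probe sets (SD 0.41 on both, 0.19 to 0.39 on the other 6), and its poly-A controls had the lowest 3' minus 5' difference, -1.41. It held the lowest value of the 8 arrays for *Rom1*, *Prom1*, *Cdhr1* and *Abca4*, and the highest for *Prph2* and the first *Rp1* probe set. Leaving out both arrays that stood apart gave a median difference from control of -0.07 at day 14. The count with a lower mean than control went from 12 to 8 of 13 at day 14 without day 14 replicate 2 (45.0% of all), and from 12 to 9 at day 3 without day 3 replicate 2 (47.8% of all).

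Other photoreceptor genes were read in the same way. Among 35 probe sets of 19 other genes of the outer segment and connecting cilium, 30 had a lower mean at day 3 and 30 at day 14, with medians of -0.32 and -0.41, and 0 passed an adjusted p. For this and the following lists, the shares lower over all probe sets were 44.6% and 42.0%. Named by their smallest unadjusted p, these were led by *Rpgrip1*, a scaffold of the connecting cilium, at -1.40 ± 0.23 at day 14 (limma adjusted p = 0.386), and *Rbp3*, which carries retinoids in the matrix between the photoreceptors, at -1.07 ± 0.24 (adjusted p = 0.412). *Mak*, a kinase of the cilium, was at -0.59 ± 0.15 at day 14, and *Aipl1*, a chaperone of the rod phosphodiesterase, at -0.52 ± 0.19 at day 3. For each of these 4 genes both arrays of the named time lay below both controls. Of all probe sets 17.8% did so at day 3 and 18.3% at day 14. Choosing genes by their smallest p favours such a separation, so it adds no support.

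Rod phototransduction, the cascade housed in the discs, gave 22 of 27 probe sets lower at day 3 (median -0.35) and 23 lower at day 14 (median -0.16). *Guca1b*, which activates guanylate cyclase, had -0.88 ± 0.16 at day 14 (limma adjusted p = 0.386). *Rgs9bp*, the anchor of the RGS9 complex that ends the light response, had -1.12 ± 0.28 at day 3, and *Rgs9* itself -1.21 ± 0.34 at day 14. Transcription factors of photoreceptors gave 13 of 15 lower at both times, with medians of -0.46 and -0.59. They included *Samd7* (-0.98 ± 0.16 at day 14, adjusted p = 0.386), *Neurod1* (-0.76 ± 0.16) and *Otx2* (-0.70 ± 0.24). Cone genes were near even, with 7 of 13 lower at day 3 (median -0.08) and 7 at day 14 (median -0.05), although cone arrestin, *Arr3*, had -0.92 ± 0.24 at day 3 (adjusted p = 0.471). At day 7 the medians of these 4 lists lay between -0.03 and 0.05. In each list 0 probe sets passed an adjusted p at any time. The medians on day 14 replicate 1 and replicate 2 were -0.02 and -0.37 for the outer segment and cilium, 0.02 and -0.25 for rod phototransduction, and -0.09 and -0.60 for the transcription factors. Without replicate 2, 24 of 35, 12 of 27 and 14 of 15 were lower than control at day 14 (45.0% of all), with medians of -0.11, 0.03 and -0.28. With both arrays, 18 of 35, 11 of 27 and 10 of 15 lay wholly below both controls (18.3% of all). Some genes were low on both day 14 arrays, as *Rpgrip1* (-0.98 and -0.98), *Guca1b* (-0.60 and -0.37), *Samd7* (-0.52 and -0.78) and *Neurod1* (-0.45 and -0.65) were. They were named for a small p at day 14, which favours genes low on both arrays. Their values therefore say nothing of the rest of their lists. At day 3 both arrays were below 0 in these 3 lists, between -0.42 and -0.16.

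**Figure D4:**
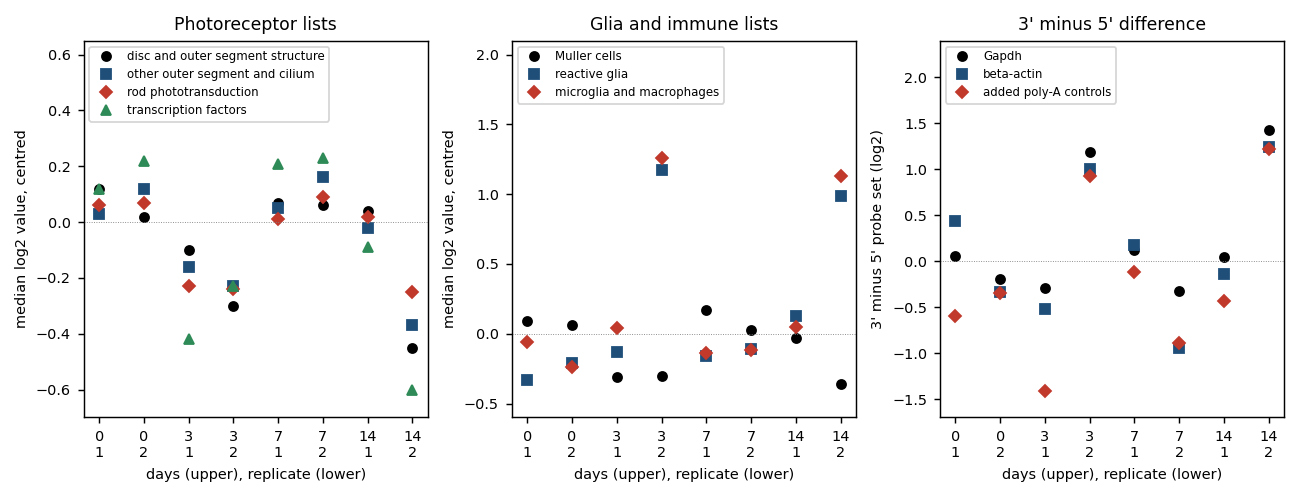
Left and middle, median centred log2 value of gene lists on each of the 8 arrays (vertical axis) in order of days in 75% oxygen and replicate number (horizontal axis); right, 3' minus 5' difference (log2) of *Gapdh*, beta-actin and the added poly-A controls. The median of the disc and outer segment structure genes is lowest on day 14 replicate 2 (-0.45) and day 3 replicate 2 (-0.30), the same arrays on which the medians of microglia (1.13 and 1.26) and reactive glia (0.99 and 1.17) and the 3' minus 5' differences are highest.

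Markers of other cells of the eye differed between the arrays as well. Müller cell genes, which include *Sox9* (-0.90 ± 0.27 at day 3, limma adjusted p = 0.471), had 19 of 21 probe sets lower at day 3 (median -0.39) and 18 lower at day 14 (median -0.24). Microglia and macrophage genes had 25 of 25 higher at day 3 and 24 of 25 at day 14, and reactive glia 25 and 24 of 27, where 55.4% and 58.0% of all were higher. Without the arrays that stood apart these were 17 and 22 of 25, and 17 and 23 of 27, where 23505 and 24750 of all 45037 probe sets were higher. *Gfap*, the intermediate filament of reactive glia, had -0.14 and 1.59 on the day 3 arrays. Genes of the lens had medians of -1.97 and 1.85 on the controls, -2.28 and -0.65 at day 3, 2.20 and 3.48 at day 7, then 0.72 and -0.83 at day 14. Those of the corneal epithelium had medians of 0.65 and 1.86 on the controls and -1.02 and -0.65 at day 3. They had -0.07 and -0.61 at day 7 and 1.34 and 0.04 at day 14. Those of the pigment epithelium had 0.12 and -0.01 on the controls and -0.46 and -0.61 at day 3. At day 7 they had -0.15 and 1.19, and at day 14 0.75 and 0.21. The part of these cells in the differences of the outer segment genes was not tested.

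For the 3 outer segment genes with the widest range of their gene mean over the 8 arrays, *Prph2* (1.72), *Impg1* (1.53) and *Crb1* (1.44), the genes with the most similar values were sought among 18192 others by the mean absolute difference over the 8 arrays. Nearest to *Prph2* were *Tmem53* (0.187), *Zik1* (0.193) and *Ccr4* (0.198). All 3 had their highest value on day 3 replicate 1, at 0.52, 1.01 and 0.30 in the same order, as *Prph2* did. Nearest to *Impg1* were *Prnp* (0.112), *Frmd4b* (0.115) and *Zfp365* (0.129), and nearest to *Crb1* were *A430033K04Rik* (0.0928), *Lypla1* (0.0956) and *Dnajc6* (0.0995). These 6 genes all had their lowest values on day 14 replicate 2, between -0.97 and -0.86, as *Impg1* and *Crb1* did, and their next lowest on day 3 replicate 2. The genes were picked for likeness on these same arrays, so sharing the highest or lowest arrays largely follows from the search. This is a description of 8 arrays with no test.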

How the data were processed

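The authors deposited log2 values from RMA, which corrects background, quantile-normalizes the arrays and summarises probes (version not given in the sources used here). In the table every probe set also has a median of 0 across the 8 arrays (to within 1e-06), a centring step they do not describe. The methods describe MAS5 values, which were not used here. Of 45101 probe sets, 64 controls were set aside and 45037 tested, of which 34945 name 1 gene in the platform annotation, 932 several and 9160 none.

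Each array was grouped by the day in its title. Using limma 3.58.1 (R 4.3.3), lmFit and eBayes were run on the means of the 4 times, with 2.71 prior and 4 residual degrees of freedom, and Benjamini-Hochberg adjusted p-values were read at 0.05. The number of arrays limits the precision. The scripts were tested on simulated data. The genes and lists were chosen with earlier results of these data known, and the comparison of all exposed arrays with control was added after the values were seen. All 10 genes were named, with the test of the probe set and time of smallest p, and up to 4 genes of each other list by smallest p. Same-numbered arrays of different times deviated from their group means with correlations between -0.396 and 0.55, so the numbers were not taken as pairs. Alternatives were a further quantile normalization, array medians subtracted, a replicate block, robust eBayes, the compared days alone, the methods' analysis of variance, each array left out in turn, both arrays that stood apart left out, gene means, folds of linear means, and no probe sets ending in _x_at or _s_at. Tables and figures used pandas 2.3.3, numpy 2.4.6 and matplotlib 3.10.9 under Python 3.11.15.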

Additional observations from a re-analysis of the deposited data

Results flagged for a closer look

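*Prom1* lay on opposite sides of both control arrays at day 3 (-0.39) and day 7 (0.05). That the effects have opposite signs was not tested as such, and the direct difference of day 7 from day 3 was 0.43 ± 0.14 (limma unadjusted p = 0.0212, adjusted p = 0.358). The *Rp1* probe set 1424964_at did so at day 7 (0.23) and day 14 (-0.67), again untested as opposite signs. Day 14 differed from day 7 by -0.90 ± 0.37 (unadjusted p = 0.0484, adjusted p = 0.482). Without day 14 replicate 2 the last 2 values of this probe set were -0.20 from control and -0.43 from day 7. Groups of 2 arrays are too small to look for a single outlying sample.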

How the results depend on the processing

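Under every alternative run, 0 of the 13 probe sets passed an adjusted p at any comparison. None of the 15 differences named from single probe sets changed sign over 267 alternative values. For most of these 15, all exposed arrays compared lay on one side of both controls, where leaving out 1 array cannot change the sign. Their constant sign is therefore no measure of how stable they are. Other differences changed sign. Without day 14 replicate 2 those of *Prom1*, *Abca4*, *Tulp1* and *Crb1* (1441330_at) from control at day 14 became 0.04, 0.01, 0.02 and 0.09. Without day 3 replicate 2 those of *Rp1* and *Crb1* (1421451_at) at day 3 became 0.22, 0.08 and 0.46. The count with an unadjusted p under 0.05 at day 3 was 3 in a fit of the compared days alone and 0 to 5 when 1 array was left out. At day 7 it was 1 after a further quantile normalization, in the compared days alone, by the methods' analysis of variance and without both arrays that stood apart, and 0 to 1 when 1 array was left out. At day 14 it was 2 after the quantile normalization and in the compared days alone, and 0 to 5 when 1 array was left out (0 without day 0 replicate 2 or day 14 replicate 2, 5 without day 14 replicate 1). Without both arrays that stood apart the day 3 count was higher than with all arrays. Shares over all probe sets under each alternative are not given here. A shift of these genes therefore cannot be told from a shift of all probe sets in these counts. With a difference of 1 or more as well, the probe sets that did not overlap control numbered 2 at day 3, 0 at day 7, 1 at day 14 and 0 over all exposed arrays. With 1 array left out, those that did not overlap numbered 4 to 11 at day 7, 6 to 13 at day 14 and 1 to 4 over all exposed arrays. A group cut to 1 array separates from another more easily, whatever the gene. Without day 14 replicate 2, 13627 of all 45037 probe sets lay below both controls at day 14, against 8256 with both arrays. The higher counts are therefore no result about these genes. Without both arrays that stood apart, the median difference was -0.07 for day 14 minus control, 0.17 for day 7 minus day 3 and 0.0 for day 14 minus day 7. With 1 array left out these ranged from -0.56 to -0.07, from 0.17 to 0.52 and from -0.51 to 0.0, and day 14 minus day 3 from -0.06 to 0.32 (-0.06 without day 3 replicate 2). Where 1 array of a time was left, its spread was taken from the other times.

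With the replicate block, the day 3 count at an unadjusted p under 0.05 was 5, the median difference was -0.39 at day 3 and -0.32 at day 14, and no call changed. A filter on low values was not run, because the centred values hold no level or detection call, and how far each probe set lay above background is unknown. With 2 arrays a time, the spread between arrays limits every comparison.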
